A study of Mus musculus with 6 samples.

Results

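The genes described here build or supply sulfated glycosaminoglycan chains, and they were chosen by symbol as 10 named genes of the 47729 genes in the deposited RNAseq table. They are the sulfate transporter *Slc26a2*, the sulfate-activating enzymes *Papss1* and *Papss2*, the sulfotransferases *Chst11* and *Chst3*, the chain-building enzymes *Xylt1*, *Csgalnact1* and *Chsy1*, the heparan sulfate polymerase *Ext1* and the hyaluronan synthase *Has2*. Each symbol matched 1 Ensembl identifier, and all 10 genes had well over the mean of 20 reads per library that was required for testing, with 1551 to 47604 reads in a library.

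Chondroitin sulfate is a long sugar chain attached to a core protein, and in cartilage most of it hangs on aggrecan, where its sulfate groups hold the water that lets the tissue resist compression. A chain is started by adding xylose to the core protein, is extended through a short linker with alternating sugars, and is sulfated inside the Golgi with sulfate that the cell imports and activates to the donor PAPS. Heparan sulfate grows from the same linker with other polymerases and binds growth factors, whereas hyaluronan is spun out at the cell membrane without core protein or sulfate. Inherited loss of sulfate transport, of PAPS synthesis or of single sulfotransferases is known to cause skeletal dysplasia, which is why these genes are of interest in a model of limb bone length.

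The study compared the proximal tibial epiphyses of 3 Control mice and 3 LS1 mice, all 14 days old. Control is an unselected ICR stock, and LS1 is the first Longshanks line, bred from such mice for long tibiae relative to body size. Both epiphyses of a mouse were pooled, so that each library stands for 1 animal and holds growth plate, articular cartilage, metaphyseal bone and marrow together. With 1 selected and 1 unselected line, effects of selection and chance differences between the lines cannot be told apart. Libraries of polyadenylated RNA held 68803249 to 76581954 reads in Control and 82227711 to 88745366 in LS1, and values are given as normalized counts, the reads of a gene divided by the size factor of its library. On the first principal component of all genes tested, LS1 replicate 3 had a score of -4.29, between the Control mice (-41.5 to -22.1) and the other LS1 mice (43.7 and 50.1). The median deviation of a library from the mean of all libraries, taken for the genes in the top quartile of GC content less those in the bottom quartile, was -0.59 on the log2 scale in LS1 replicate 1 and -0.044 to 0.29 in the other libraries.

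Across the 10 genes, 9 had a higher mean in LS1 than in Control on the log2 scale and 1, *Chst3*, had a lower mean. The median log2 fold change of the 10 genes was 0.45, against 0.0054 over all 19308 genes tested, of which 50.7% were above 0. In limma, with p-values adjusted over the whole table, 0 of the 10 genes passed the threshold of 0.05, and 0.0725% of all genes passed it. The tests of edgeR and limma-voom on the recovered reads also called 0 of the 10 genes. DESeq2, the tool the study used, called 1 of the 10 genes, *Chst3*, and 2.36% of all genes. Without adjustment, 7 of the 10 genes had p under 0.05 in limma against 12.9% of all genes. Of these 7 genes, 6 were higher in LS1, where 7.08% of all genes were, and 1 was lower, where 5.86% of all genes were. In bulk tissue, fewer cells of a type and less RNA per cell cannot be told apart, and this holds for each difference given here.

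The groups did not overlap in 5 of the 10 genes. In *Papss1*, *Chsy1*, *Csgalnact1* and *Has2* every LS1 library lay above every Control library, a separation that 10.3% of all genes showed in this direction. In *Chst3* every LS1 library lay below every Control library, as in 8.94% of all genes. In the other 5 genes at least 1 LS1 library fell among the Control values. Among the 6 genes that were higher in LS1 with unadjusted p under 0.05, LS1 replicate 1 was the highest LS1 library in 5 and LS1 replicate 3 the lowest in 5. Control replicate 3 was the lowest of all 6 libraries in 7 of the 10 genes. Without LS1 replicate 3, limma called 3 of the 10 genes, *Chst3*, *Xylt1* and *Chst11*, and 1.68% of all genes.

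**Figure D1:**
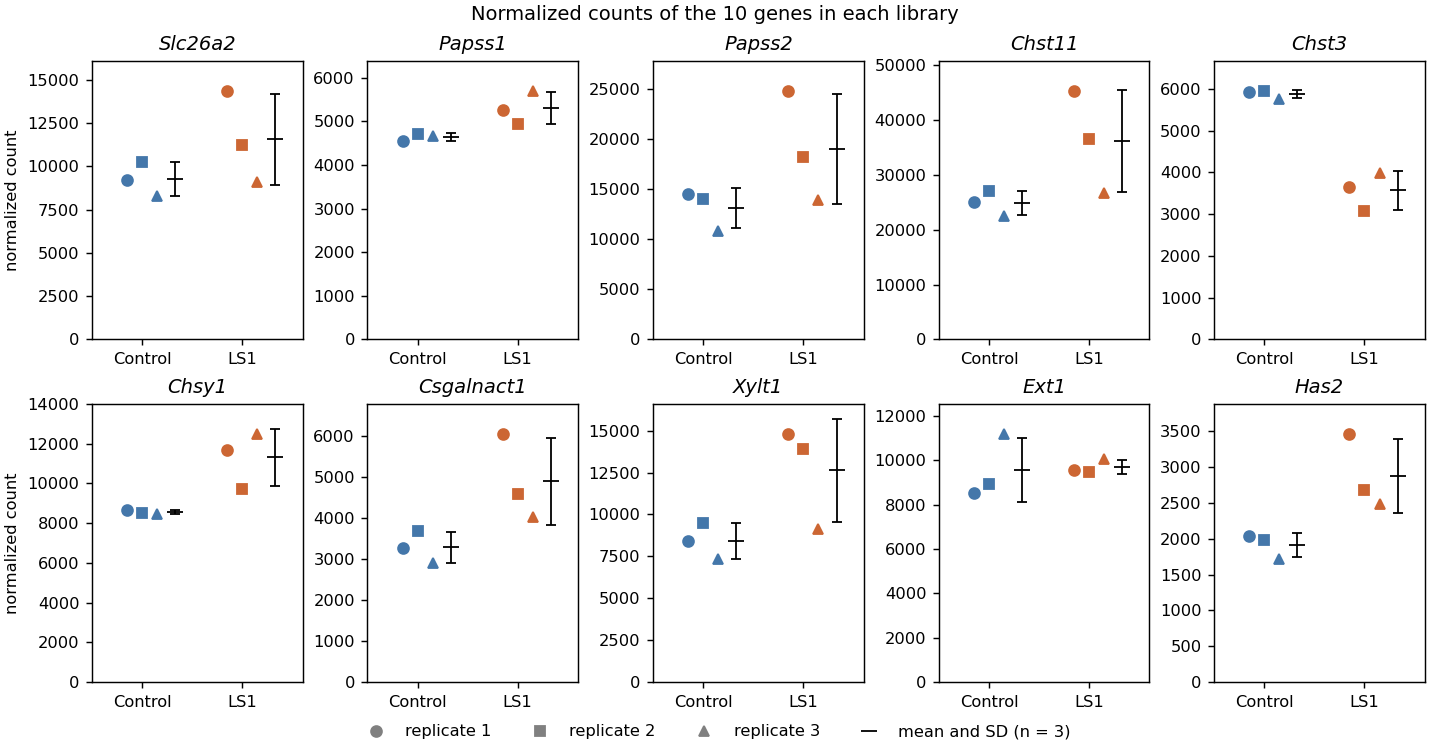
Normalized counts (y axis, linear and starting at 0) of the 10 genes in the 3 Control and 3 LS1 libraries, with a marker shape for each replicate number and bars for mean and SD. *Chst3* is the only panel in which the LS1 points (3070 to 3992) sit below the Control points (5767 to 5954), and *Ext1* is the panel with the closest means.

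**Figure D2:**
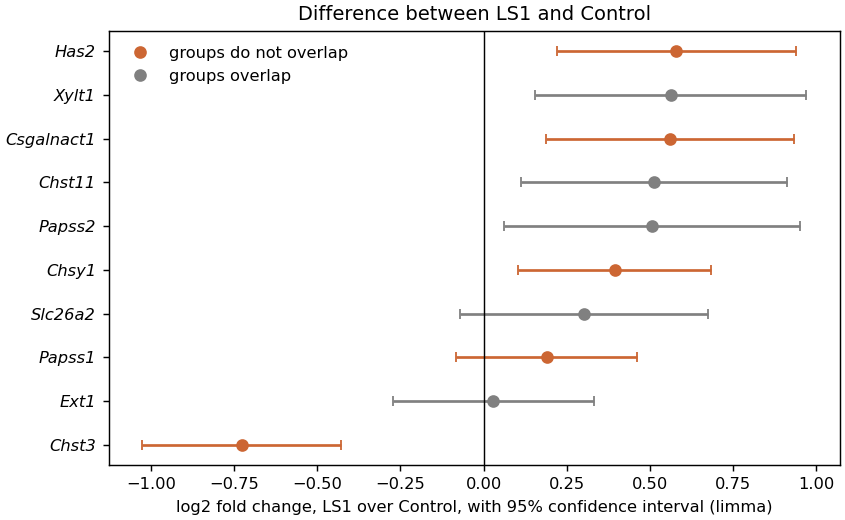
Log2 fold changes of LS1 over Control from limma (x axis) for the 10 genes, with 95% confidence intervals. The intervals of *Slc26a2*, *Papss1* and *Ext1* include 0, and that of *Chst3* runs from -1.03 to -0.43.

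Sulfate supply begins with *Slc26a2*, the membrane transporter that brings inorganic sulfate into chondrocytes. Its normalized counts were 9222, 10264 and 8305 in Control and 14370, 11224 and 9119 in LS1. The LS1 values were spread widely, and LS1 replicate 3 lay below the mid Control value. This gave *Slc26a2* a log2 fold change of 0.30 with a standard error of 0.17 (adjusted p = 0.482 in limma). Without LS1 replicate 1 it was 0.13.

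*Papss1* and *Papss2* encode PAPS synthases, which turn sulfate into the activated donor that every sulfotransferase uses. *Papss2*, the form prominent in cartilage, lies on chromosome 19 of GRCm38 from 32595790 to 32667187 on the plus strand. It had normalized counts of 14496, 13981 and 10849 in Control and of 24784, 18232 and 13937 in LS1. LS1 replicate 3 again fell within the Control range, while the other LS1 libraries were above it. This gave *Papss2* a log2 fold change of 0.51 (standard error 0.20, unadjusted p = 0.029 and adjusted p = 0.330 in limma). It was 0.29 without LS1 replicate 1 and 0.71 without LS1 replicate 3. *Papss1*, on chromosome 3 from 131564768 to 131643671 (plus strand), had 4552, 4719 and 4665 normalized counts in Control and 5272, 4947 and 5699 in LS1. Each LS1 value exceeded the highest Control value, but by a small margin. For *Papss1* the log2 difference was 0.19 (standard error 0.12, adjusted p = 0.541 in limma). Per kilobase of exon, *Papss2* was the more abundant synthase in both groups, at 3523 ± 530 normalized counts in Control and 5102 ± 1468 in LS1 (SD, n = 3), beside 1522 ± 28.1 and 1738 ± 124 for *Papss1*.

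Sulfation of the chain was where the set divided. *Chst11* encodes the main chondroitin 4-O-sulfotransferase, which places sulfate at the C4 position of N-acetylgalactosamine, and *Chst3* a chondroitin 6-O-sulfotransferase, which places it at C6. Both genes are on chromosome 10 of GRCm38, *Chst11* from 82985498 to 83195900 on the plus strand and *Chst3* from 60181532 to 60219260 on the minus strand. *Chst11* was the most abundant of the 10 genes per kilobase of exon. Its normalized counts were 25121, 27023 and 22512 in Control and 45331, 36491 and 26756 in LS1. The lowest LS1 library, replicate 3, was just under the highest Control library, and the other LS1 libraries were above all Control libraries. This gave *Chst11* a log2 fold change of 0.51 (standard error 0.18, unadjusted p = 0.017 and adjusted p = 0.295 in limma). Without LS1 replicate 3 it was 0.71, with adjusted p = 0.0475 in limma, and without LS1 replicate 1 it was 0.33. Over the 18 alternative settings the adjusted p-value of *Chst11* ran from 0.0475 to 0.572.

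*Chst3* differed in the opposite direction. Its normalized counts were 5921, 5954 and 5767 in Control and 3653, 3070 and 3992 in LS1. The Control libraries were within a narrow band, and the highest LS1 library was well under the lowest of them. The means were 5881 ± 99.9 in Control and 3572 ± 466 in LS1 (SD, n = 3), so that LS1 stood at 0.607 of the Control mean. On the log2 scale the fold change was -0.73 (standard error 0.14). In limma the unadjusted p was 0.000227 and the adjusted p = 0.120. With DESeq2 on the recovered reads the adjusted p was 0.000938, and without LS1 replicate 3 it was 0.0181 in limma. Over the 18 alternative settings the log2 fold change of *Chst3* stayed between -0.81 and -0.62, and its adjusted p-value ran from 0.000938 to 0.359. *Chst3* was also the member with the highest GC content of its longest transcript, 53.8%, and with an offset for GC content its log2 fold change was -0.64.

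Because *Chst11* and *Chst3* differed in opposite directions, the bases directly upstream of their annotated starts are shown, together with those of *Papss2*, whose product both enzymes use. The sequences are from RefSeq on GRCm38.p6, cover 250 bases up to the transcript start and are written 5′ to 3′ on the strand of the gene. Capitals mark the letters GGGCGG or their reverse complement, the GC box.
Chst11, chr10:82985247-82985496, plus strand: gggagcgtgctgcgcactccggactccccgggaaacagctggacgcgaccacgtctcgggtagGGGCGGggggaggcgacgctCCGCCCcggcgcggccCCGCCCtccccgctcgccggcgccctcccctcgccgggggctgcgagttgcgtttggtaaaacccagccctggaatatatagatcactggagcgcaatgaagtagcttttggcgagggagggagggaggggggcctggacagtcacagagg
Chst3, chr10:60219261-60219510, minus strand: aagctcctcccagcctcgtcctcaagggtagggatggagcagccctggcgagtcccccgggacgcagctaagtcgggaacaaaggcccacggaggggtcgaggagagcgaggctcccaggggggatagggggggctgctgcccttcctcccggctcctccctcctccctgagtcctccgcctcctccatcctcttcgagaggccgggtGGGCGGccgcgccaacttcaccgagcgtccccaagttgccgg
Papss2, chr19:32595465-32595714, plus strand: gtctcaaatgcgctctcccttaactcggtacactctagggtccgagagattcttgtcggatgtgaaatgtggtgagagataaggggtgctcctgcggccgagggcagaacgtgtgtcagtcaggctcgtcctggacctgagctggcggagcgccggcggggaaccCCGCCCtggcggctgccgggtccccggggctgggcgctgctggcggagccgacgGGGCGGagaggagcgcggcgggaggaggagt
The *Chst11* window holds 3 GC boxes, the *Chst3* window 1 and the *Papss2* window 2, and 32.7% of the 32851 RefSeq windows of this length hold at least 1. Windows of *Papss1* and *Chsy1* were read as well, so that 5 of the 10 genes are covered here. The first windows of *Papss1* and *Chsy1* held at least 1 GC box too. The GC content was 70.0% for *Chst11*, 69.6% for *Chst3* and 67.6% for *Papss2*, against a median of 52.4% over all windows. On either strand these 3 windows held no match to CCAAT (33.8% of all windows), TATAAA (12.4%) or AACAAT, a core of SOX sites (9.42%). Other spellings of SOX sites were not searched. The first windows of *Papss1* and *Chsy1* each held 1 CCAAT, and a second *Papss2* window, at a downstream start, held 2 CCAAT and 1 AACAAT. 

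The ratio of *Chst11* to *Chst3* within a library does not depend on the scaling of that library. In normalized counts it was 4.24, 4.54 and 3.90 in Control and 12.4, 11.9 and 6.70 in LS1. Every LS1 library was above every Control library, including replicate 3. The difference was 1.24 on the log2 scale (standard error 0.29), with p = 0.1 in a two-sided exact permutation test, which is the smallest value that 3 against 3 mice allow, and 0.25 after Benjamini-Hochberg adjustment over the 5 ratios compared. Leaving out each library in turn gave 1.08 to 1.52. The other ratios were set beside it. *Papss2* to *Papss1* differed by 0.32 (exact permutation p = 0.4), *Csgalnact1* to *Chsy1* by 0.17 (exact permutation p = 0.5) and *Has2* to *Chsy1* by 0.18 (exact permutation p = 0.4), all with overlapping groups. With 1 library left out these ran from 0.10 to 0.57, from 0.029 to 0.37 and from 0.071 to 0.36, lowest without LS1 replicate 1 and highest without LS1 replicate 3. *Ext1* to *Chsy1*, the polymerases of the alternative chains, was lower in LS1 by 0.36 without overlap (exact permutation p = 0.1, adjusted 0.25), and by 0.24 without Control replicate 3. The groups were barely apart, with a log2 ratio of -0.027 in Control replicate 1 and -0.040 in LS1 replicate 2.

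**Figure D3:**
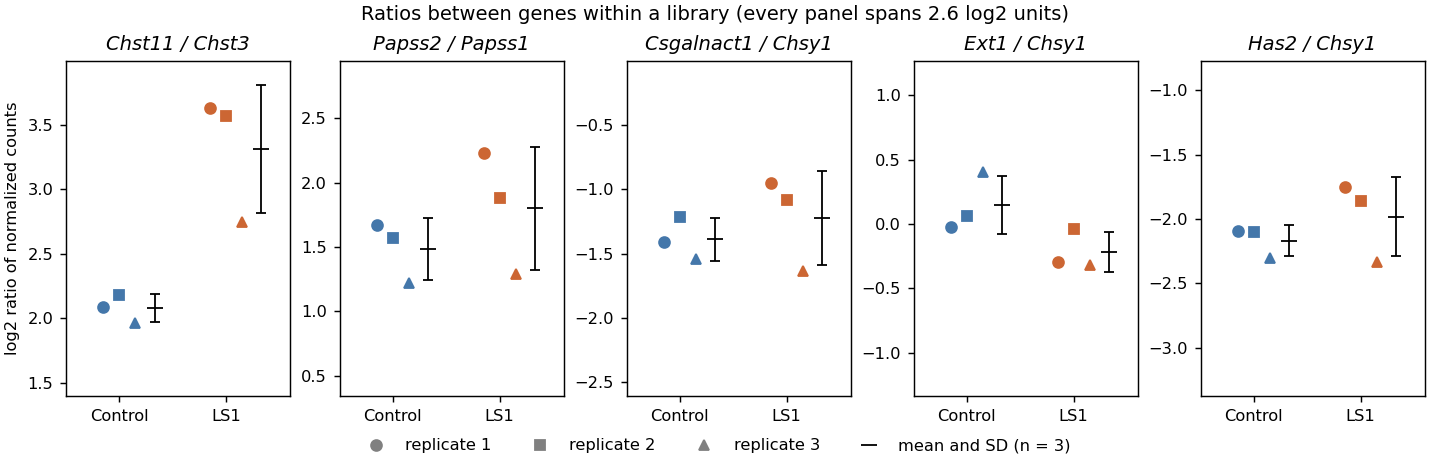
Log2 ratios of normalized counts between pairs of the 10 genes in each library (y axis, all panels of equal span), with mean and SD per group. The *Chst11* to *Chst3* ratio is higher in each LS1 library (2.74 to 3.63) than in each Control library (1.96 to 2.18).

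The other sulfotransferases of the same positions help to place these values. The 4-O-sulfotransferases *Chst12* and *Chst13* differed between LS1 and Control by 0.24 and 0.13 on the log2 scale, with adjusted p = 0.530 and 0.851 in limma. Per kilobase of exon, *Chst11* made up 70.7% to 75.9% of the summed level of these 3 genes in Control and 69.3% to 83.9% across LS1, with overlap. *Chst7*, another 6-O-sulfotransferase, had a log2 fold change of 0.25 (adjusted p = 0.682 in limma) at a low level of 102 ± 9.56 normalized counts per kilobase in Control (SD, n = 3). *Chst3* made up 88.9% to 90.5% of the summed level of *Chst3* and *Chst7* in Control and 81.1% to 82.5% in LS1, without overlap. *Chst3* thus remained the more abundant 6-O-sulfotransferase transcript in each library.

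Chain building starts with *Xylt1*, the xylosyltransferase that adds the first sugar to a core protein. It lies on chromosome 7 from 117380979 to 117673580 (plus strand) and had 8395, 9498 and 7346 normalized counts in Control and 14824, 13910 and 9135 in LS1. LS1 replicate 3 was under the highest Control library, whereas the other LS1 libraries were far above it. On the log2 scale LS1 was higher by 0.56 (standard error 0.19, unadjusted p = 0.011 and adjusted p = 0.276 in limma). Without LS1 replicate 3 it was 0.78, with adjusted p = 0.0273 in limma, and over the 18 alternatives the adjusted p-value of *Xylt1* ran from 0.0273 to 0.552. Its paralog *Xylt2* had a log2 fold change of -0.030 (adjusted p = 0.965 in limma), and *Xylt1* was the more abundant of the pair per kilobase, with 59.2% to 69.6% of their sum in Control and 63.6% to 82.2% in LS1.

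*Csgalnact1* adds the first N-acetylgalactosamine after the linker and so commits a chain to chondroitin sulfate. On chromosome 8 from 68356781 to 68735146 (minus strand), it had 3263, 3677 and 2907 normalized counts in Control and 6054, 4594 and 4015 in LS1. The groups were apart, with LS1 replicate 1 the farthest from Control. Its log2 difference was 0.56 with a standard error of 0.17 (unadjusted p = 0.00698 and adjusted p = 0.250 in limma).  *Csgalnact2*, which has the same activity, had a log2 fold change of 0.38 (unadjusted p = 0.037 and adjusted p = 0.352 in limma). It was 0.21 without LS1 replicate 1 and 0.17 with the GC content offset. *Csgalnact2* was the more abundant of the pair per kilobase, and *Csgalnact1* held 30.3% to 34.0% of their sum in Control and 34.3% to 34.5% in LS1.

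*Chsy1* polymerizes the chain by adding both of its alternating sugars. It lies on chromosome 7 from 66109515 to 66173798 on the plus strand. Its normalized counts were 8684, 8533 and 8470 in Control and 11694, 9728 and 12506 in LS1. The groups did not overlap, and here LS1 replicate 3 was the highest library, unlike in the other genes that were higher in LS1 with p under 0.05. A log2 fold change of 0.39 resulted for *Chsy1* (standard error 0.13, unadjusted p = 0.012 and adjusted p = 0.280 in limma). The antisense gene *Gm26827* shares 148 bases, 3.54% of the exons of *Chsy1*, and whether reads were counted by strand is not given in the sources used here. Of the partner proteins of the polymerase, *Chsy3* had a log2 fold change of 0.48 (unadjusted p = 0.029 and adjusted p = 0.329 in limma), and *Chpf* and *Chpf2* had 0.050 and -0.0010 (adjusted p = 0.938 and 0.999 in limma).

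*Ext1* and *Has2* make the chains that compete with or accompany chondroitin sulfate. *Ext1*, a polymerase of heparan sulfate, is on chromosome 15 from 53064038 to 53346159 (minus strand), and it had 8524, 8920 and 11197 normalized counts in Control and 9534, 9459 and 10030 in LS1. The Control libraries spanned a wider range than the LS1 libraries, which lay inside it. Its log2 fold change was 0.029 with a 95% confidence interval from -0.27 to 0.33 (adjusted p = 0.949 in limma), and its sign turned under 4 of the 18 alternatives. *Ext2*, with which it forms the polymerase, had a log2 fold change of 0.22 (adjusted p = 0.527 in limma). *Has2*, the main hyaluronan synthase of the developing skeleton, is also on chromosome 15, from 56665627 to 56694539 (minus strand). It had 2035, 1983 and 1716 normalized counts in Control and 3465, 2682 and 2481 in LS1. No LS1 library reached down to the Control range. At 0.58 (standard error 0.16, unadjusted p = 0.00456 and adjusted p = 0.234 in limma) its log2 fold change was the highest of the 10 genes, and 0.41 with an offset for GC content, *Has2* having the lowest GC content of the set at 40.6%. The transcript *Has2os* on the opposite strand shares 182 bases, 4.30% of the exons of *Has2*, and had 40.9 to 73.7 normalized counts in a library. *Has2* held 94.7% to 96.3% of the summed level per kilobase of *Has1*, *Has2* and *Has3* in Control and 95.2% to 97.2% in LS1. For *Has1*, with only 10 to 35 reads in a library, the log2 fold change was 0.55 (adjusted p = 0.691 in limma). For *Has3* it was 0.29 (adjusted p = 0.730 in limma).

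Ordered by level per kilobase of exon, the Control epiphysis expressed *Chst11* most, at 4502 ± 410 normalized counts per kilobase (SD, n = 3), then *Papss2*, *Chsy1* at 2050 ± 26.4, *Papss1*, *Ext1* at 1182 ± 179, *Chst3* at 905 ± 15.4, *Xylt1* at 872 ± 111, *Slc26a2* at 749 ± 79.2, *Csgalnact1* at 644 ± 75.7 and *Has2* at 451 ± 40.5. In this order the libraries of *Chst3*, *Xylt1*, *Slc26a2* and *Csgalnact1* overlapped from each to the next, and all other neighbours were apart. In LS1 the first 4 places were the same, and *Chst3*, the sixth gene in Control, came last with 550 ± 71.8 (SD, n = 3). From the fifth place down each LS1 neighbour overlapped the next, as did *Chst11* and *Papss2*.

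Genes typical of chondrocytes were themselves mostly higher in LS1. Of the 15 chondrocyte markers, 13 had log2 fold changes above 0, and 2 were below, *Col11a2* at -0.072 and *Sox6* at -0.31. *Col2a1* had 0.24 with overlapping groups (unadjusted p = 0.167 in limma). In limma 8 of the 15 had unadjusted p under 0.05, all higher in LS1, where 7.08% of all genes were. At an adjusted p-value under 0.05 limma called 0 of the 15, and 0.0725% of all genes. The median log2 fold change of the 15 markers was 0.48. The mean log2 value of the list was 15.50, 15.57 and 15.41 in Control and 15.94, 15.95 and 15.77 in LS1, a difference of 0.40 (standard error 0.074, exact permutation p = 0.1) without overlap. The summed level of the list was 2470482 to 2797546 normalized counts in Control, against 3113784 to 3593639 in LS1. To set the 10 genes beside this shift, the mean log2 value of the chondrocyte list was subtracted from each gene within each library.

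On that scale the differences of the genes that were higher in LS1 became small. They were 0.11 for *Papss2*, 0.12 for *Chst11*, 0.16 for *Csgalnact1*, 0.17 for *Xylt1* and 0.18 for *Has2*, each with overlapping groups and exact permutation p-values from 0.2 to 0.9. With the median of the chondrocyte list in place of its mean, these 5 differences turned negative, from -0.13 to -0.056. *Chsy1* was at -0.0022, *Slc26a2* at -0.094 and *Papss1* at -0.21, also with overlap. *Chst3* was at -1.12 (standard error 0.16) and *Ext1* at -0.37 (standard error 0.18), or -0.20 without Control replicate 3. In these cases the groups did not overlap, with p = 0.1 each in the exact permutation test. For *Ext1* they were barely apart, at -2.44 in Control replicate 2 and -2.48 in LS1 replicate 3. For *Chst3* the values relative to the list were -2.97, -3.03 and -2.91 in Control and -4.10, -4.37 and -3.81 in LS1. The list mean was itself higher in LS1 by 0.40, and subtracting it lowers the difference of each gene by that amount. Without the subtraction the log2 fold changes were -0.73 for *Chst3* and 0.029 for *Ext1*. The larger difference of *Chst3* and the negative one of *Ext1* follow from this arithmetic and are not separate findings for these genes.

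Markers of other cells in the tissue also differed in part. Of all genes, 7.08% were higher and 5.86% lower in LS1 with unadjusted p under 0.05 in limma. Each of the 8 erythroid markers had a lower mean in LS1 (median log2 fold change -0.51, 3 with unadjusted p under 0.05 in limma), and their summed level was 287352 to 417924 normalized counts in Control against 194085 to 324585 in LS1. Of 6 B-cell markers 5 were lower with unadjusted p under 0.05 (median -0.57), with sums of 41300 to 43413 and 25482 to 38425. Of 9 osteoblast markers 1 was lower with unadjusted p under 0.05 (median 0.039), with sums of 5418929 to 6413794 in Control against 4530324 to 5545795 in LS1. The 5 hypertrophic chondrocyte markers had a median of 0.34, with 3 above 0 and 2 below. They ran from -0.37 for *Mmp13* to 0.61 for *Col10a1*. Of the 5, 2 were higher with unadjusted p under 0.05, among them *Col10a1*, and 0 were lower. The sums of the 5 markers overlapped, at 734156 to 1097299 in Control against 931828 to 1059911 in LS1. The 5 fibroblast markers had a median of 0.37, with 1 higher at unadjusted p under 0.05 and sums of 143563 to 176868 and 189997 to 206661. The 5 skeletal muscle markers had a median of -0.76, none with unadjusted p under 0.05, and sums of 7822 to 18982 and 3724 to 11188. The medians were 0.031 for 6 osteoclast markers, 0.31 for 7 neutrophil markers, 0.28 for 7 macrophage markers and 0.093 for 5 endothelial markers, of which 0, 2, 1 and 1 were higher with unadjusted p under 0.05 and none lower. No listed marker was at 0 in all 6 libraries, and the part of these cells in the values of the 10 genes was not tested.

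The remaining genes of the pathway were followed through 11 lists arranged by role, with 105 of 111 genes tested. At an adjusted p-value under 0.05, limma called 0 of the 105 genes and edgeR 0. DESeq2 called 4 of the 105, beside 2.36% of all genes, and these were *Epyc*, *Glce*, *Ugdh* and *Gpc3*. Without adjustment 23 had p under 0.05 in limma, 21 of them higher in LS1, where 7.08% of all genes were, and 2 lower, where 5.86% were. The log2 fold change was above 0 in 80 of the 105 genes, with a median of 0.17. The groups did not overlap in 28 genes that were higher and 3 that were lower in LS1, beside 10.3% and 8.94% of all genes.

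**Figure D4:**
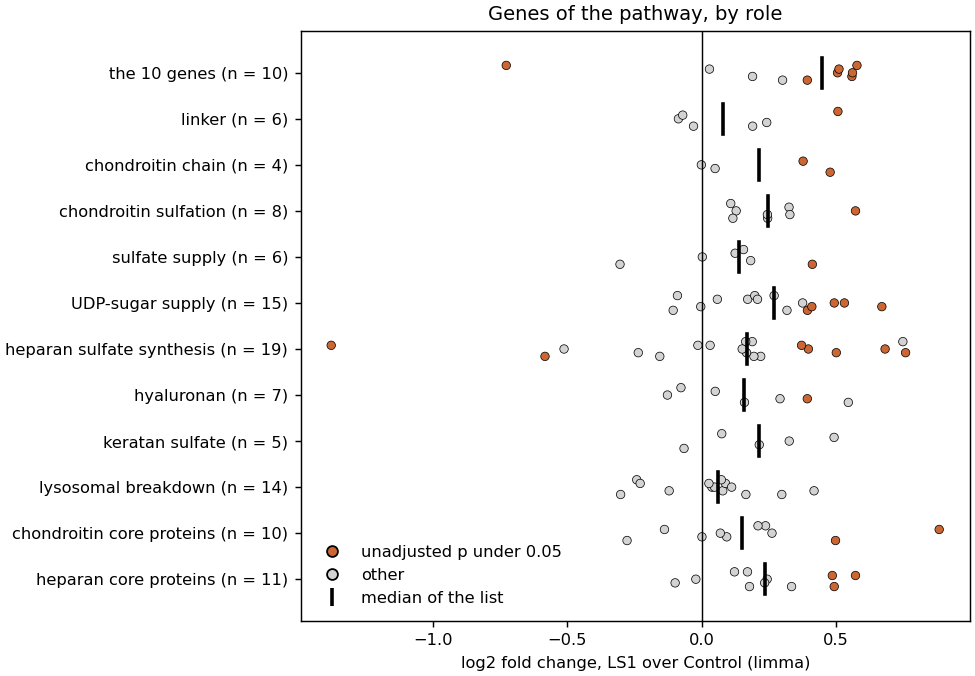
Log2 fold changes of LS1 over Control from limma (x axis) of the 10 genes and of the tested genes in 11 lists by role, with a bar at each median. Medians of the lists lie between 0.061 and 0.27, below the 0.45 of the 10 genes, and coloured points have unadjusted p under 0.05.

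The lists nearest to the 10 genes cover the linker, the chain, its sulfation and the sulfate supply. Of the 4 further genes of the chondroitin chain, *Chsy3* and *Csgalnact2*, given above, were higher with unadjusted p under 0.05 and without overlap. Of all genes, 7.08% were higher at that threshold and 10.3% were higher without overlap. The median of the 4 genes was 0.21. Of 6 further linker genes, 1 was higher with unadjusted p under 0.05, a result that 7.08% of all genes gave, *Fam20b*, the kinase that phosphorylates the linker xylose, with a log2 fold change of 0.51 (adjusted p = 0.230 in limma). At the other end of that list, *B3galt6*, a galactosyltransferase of the linker, had -0.086 (adjusted p = 0.878 in limma). The sulfation list held 8 further genes, which were sulfotransferases and epimerase genes. All 8 had log2 fold changes above 0, with a median of 0.25 (50.7% of all genes were above 0). In limma 1 had unadjusted p under 0.05, and it was not a sulfotransferase. This was *Dsel*, related to the epimerase that turns chondroitin into dermatan sulfate, at 0.57 (adjusted p = 0.268 in limma), or 0.36 without LS1 replicate 1. Of 6 further genes of sulfate supply, *Impad1*, the Golgi phosphatase that clears the by-product of sulfation, had 0.41 (unadjusted p = 0.019 and adjusted p = 0.301 in limma), or 0.27 without LS1 replicate 1 and 0.22 with the GC content offset. *Slc26a1*, another sulfate transporter, had -0.30 without overlap (adjusted p = 0.498 in limma), and *Slc26a2* held 73.8% to 76.8% of the summed level per kilobase of the pair in Control and 77.0% to 87.6% in LS1.

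The supply of sugar nucleotides had the highest median of the 11 lists, 0.27. Of its 15 genes 12 had log2 fold changes above 0, as 50.7% of all genes did, and 5 were higher with unadjusted p under 0.05, as were 7.08% of all genes. *Ugdh*, which makes the UDP-glucuronate used for chondroitin, heparan sulfate and hyaluronan alike, had 8468 ± 762 normalized counts in Control and 12257 ± 1369 in LS1 (SD, n = 3). The log2 difference of *Ugdh* was 0.53 (adjusted p = 0.206 in limma and 0.0445 in DESeq2).

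Among 19 tested genes of heparan sulfate synthesis, 5 were higher and 2 lower in LS1 with unadjusted p under 0.05, beside 7.08% and 5.86% of all genes. *Glce*, the epimerase of the heparan chain, had a log2 fold change of 0.68 (adjusted p = 0.222 in limma and 0.0408 in DESeq2). *Hs6st1*, a heparan 6-O-sulfotransferase, had -0.58 without overlap (unadjusted p = 0.010 and adjusted p = 0.269 in limma), or -0.35 without LS1 replicate 1. This enzyme, like *Chst3*, adds sulfate at C6, but to another chain and sugar. In the hyaluronan list *Cd44*, the hyaluronan receptor, had 0.39 (adjusted p = 0.267 in limma), and *Hyal1*, a hyaluronidase, had -0.13 (adjusted p = 0.820 in limma). Keratan sulfate genes had no member with unadjusted p under 0.05 in limma, with *B3gnt7* at 0.49 (adjusted p = 0.463) and *Chst1* at -0.066 (adjusted p = 0.933).

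Core proteins and breakdown enzymes mark the start and the end of the life of a chain. *Acan*, encoding aggrecan, had 177817 ± 16936 normalized counts in Control and 251077 ± 21692 in LS1 (SD, n = 3), without overlap. Its log2 fold change was 0.50 (unadjusted p = 0.00398 and adjusted p = 0.229 in limma). *Epyc*, a small cartilage proteoglycan, had 0.88 (adjusted p = 0.184 in limma and 0.00626 in DESeq2), and *Bcan*, a brain proteoglycan, had -0.14 (adjusted p = 0.766 in limma). On the heparan side *Gpc3*, a membrane glypican, had 0.57 (adjusted p = 0.229 in limma and 0.0484 in DESeq2) and *Agrn*, a basement membrane proteoglycan, -0.099 (adjusted p = 0.809 in limma). Of 14 lysosomal breakdown genes none had unadjusted p under 0.05 in limma, and the median was 0.061. *Arsb* and *Ids*, sulfatases that act on chondroitin and dermatan or heparan sulfate, had -0.30 and 0.42 (adjusted p = 0.538 and 0.417 in limma).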

How the data were processed

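Polyadenylated RNA of tibial epiphyses (3 Control and 3 LS1 mice) was sequenced by the authors. They used HISAT2 2.0.2 for mapping to GRCm38, featureCounts 1.4.6 for counting and DESeq2 for analysis, which their processing notes also name. The deposited signal of a gene is its reads after the authors scaled each library with a single DESeq2 size factor. Dividing by the value of 1 read gave whole reads for 100% of the values of each library (tolerance 0.01). In Control replicate 1 this value, 1.01, was too near to 1 for that check to tell. All 6 columns were used.

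Genes averaging 20 or more recovered reads were compared on log2(value + 1) with limma 3.58.1 (R 4.3.3) with trend and robust moderation and Benjamini-Hochberg adjustment. The tests were two-sided with a threshold of 0.05. A fold change on this scale understates that of low genes. The spread between 3 mice sets the precision of each value, and counting error is small at these depths. The alternatives were edgeR 4.0.16 and DESeq2 1.42.0 on recovered reads, limma-voom, other scaling, pseudocounts and filters, a replicate block, each library left out, and, chosen after seeing the data, offsets for GC content and length. Differences of ratios, and of genes relative to the chondrocyte list, were tested with exact permutation. Scripts were tested on simulated data.

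Names came from GENCODE M21 and matched 99.1% of identifiers. Members, gene lists and tests were chosen with earlier results of these data known. The text names the 10 members, in each pathway list the gene with the smallest p in each direction, genes with adjusted p under 0.05, and direct paralogs or partners of the members. *Col10a1*, *Mmp13*, *Col2a1*, *Col11a2*, *Sox6*, *Gm26827* and *Has2os* were named after their values were seen. A gene that this rule names is not reported here.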

Additional observations from a re-analysis of the deposited data

How the results depend on the processing

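Of the 10 genes, *Ext1* alone changed direction under any alternative, with log2 fold changes of -0.092 with the GC content offset, -0.041 with the length offset, and -0.047 and -0.015 without Control replicate 1 and 2, in a range of -0.047 to 0.15 over the libraries left out. All 5 ratios kept their direction. The number of genes called among all tested was 456 with DESeq2, 3 without trend and robust moderation, 45 without a filter, 9 with a mean of at least 100 reads, and 9 with either offset. Leaving out 1 library gave 5 to 324 genes. Among the 10 genes it was 1 with DESeq2 and 0 to 3 with a library left out, and among pathway genes 4 and 0 to 1. The replicate block, by the letter in the titles, called 12 genes and 0 of the 10. Unadjusted p was under 0.05 in 3377 genes with the block, against 2499 in the main limma fit. Among the 10 genes it was 8 against 7, and among the pathway genes 32 against 23. Deviations of libraries with the same letter correlated at 0.054, 0.021 and 0.22 across genes. Libraries with different letters were not compared in this way, so these values cannot decide whether the letters mark pairs. The main fit did not use the letters. Relative to the median of the chondrocyte list, *Papss2* was at -0.13, *Chst11* at -0.12, *Csgalnact1* at -0.075, *Xylt1* at -0.073 and *Has2* at -0.056. With a library left out, the difference relative to the list mean ran from -0.24 to 0.0070 for *Slc26a2*, -0.076 to 0.26 for *Papss2*, -0.037 to 0.26 for *Chst11*, -0.14 to 0.13 for *Chsy1*, 0.025 to 0.24 for *Csgalnact1*, 0.061 to 0.33 for *Xylt1*, 0.067 to 0.26 for *Has2*, -0.32 to -0.13 for *Papss1* and -0.45 to -0.20 for *Ext1*. Directions also turned with a library left out for *Agrn* (-0.19 to 0.035), *Bcan* (-0.24 to 0.011), *Chpf* (-0.11 to 0.30), *Chst13* (-0.071 to 0.26), *Hyal1* (-0.25 to 0.038), *Chpf2* (-0.16 to 0.19), *Chst1* (-0.27 to 0.12) and *Xylt2* (-0.17 to 0.18). With the GC content offset, values were 0.098 for *Chpf2*, 0.028 for *Chst1* and 0.074 for *Xylt2*. The causes were not tested. With 3 mice per group, the exact tests cannot reach 0.05, and depth does not limit the 10 genes.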
